A study of Mus musculus with 2 samples.

Results

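The transforming growth factor beta (TGF-beta) genes described here were the ligands Tgfb1, Tgfb2 and Tgfb3, the receptors Tgfbr1, Tgfbr2 and Tgfbr3, the latent ligand-binding protein gene Ltbp1, and the targets Smad7 and Tgfbi. They were chosen by gene symbol, which matched 9 of the 29924 genes named on the array and 15 of its 39429 probes. RNA came from ureters of P0 (newborn) NMRI wildtype mice kept in culture for 18 h in medium containing either IWP-2 at 5 µM or its solvent, DMSO. IWP-2 inhibits Porcupine, the enzyme that makes WNT ligands fit for secretion, so the comparison addressed which transcripts of the cultured ureter depend on WNT secretion. Replicate 1 was a female pair of pools and replicate 2 a male pair, each pair on 1 two-colour array, with the dyes exchanged between the arrays. Each pool held several whole ureters, so urothelium, lamina propria and smooth muscle were measured together.

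TGF-beta ligands are secreted in a latent form, bound to their own propeptide and usually to an LTBP protein that ties them to the matrix. After release, a ligand dimer binds the type II receptor, which activates the type I receptor and through it SMAD2 and SMAD3, and these enter the nucleus with SMAD4. SMAD7 is induced by the pathway and inhibits it. In many organs the pathway acts on mesenchymal cells, where it promotes matrix production and smooth muscle differentiation.

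Ltbp1 was lower after IWP-2 in both arrays, and it was the only one of the 9 genes that passed the test. Its mean log2 ratio of IWP-2 over control was -0.59 (SE 0.082, n = 2 arrays). The other 8 genes had mean log2 ratios between -0.21 and 0.03 and did not pass. On the probe used for each gene, the ligand, receptor and target genes other than Ltbp1 had 95% confidence intervals that lay between -0.41 and 0.21. Larger mean differences lay outside these intervals, which do not cover the other probes of a gene. A further probe of Tgfbr1 had a mean log2 ratio of 0.39.

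The test was limma's moderated test against a log2 ratio of 0, adjusted by Benjamini-Hochberg. It covered the 14336 genes whose signal, averaged over the arrays, exceeded 100 with or without IWP-2, and all 9 genes were among these. An adjusted p under 0.05 was called. This called 1 of the 9 genes lower and none higher, where 0.886% of all genes tested were called lower and 0.363% higher, 1.25% in either direction. At an unadjusted p under 0.05 limma also gave 1 of the 9 lower and none higher, against 6.64% and 6.27% of all genes tested. The study filtered genes on control signal and fold change. None of the 9 passed such a filter, applied here as a control signal above 100 and a change of at least 1.5-fold in both arrays, which was passed downward by 0.363% and upward by 0.0783% of the 14051 genes that met its signal minimum. Because whole ureters were pooled, fewer cells of a type and less RNA per cell cannot be told apart. The study's methods call the pools independent. The p-values rest on the spread between these 2 arrays, drawn by limma toward that of all genes tested (1 residual and 5.49 prior degrees of freedom). They thus do not measure the spread of a gene alone. The arrays also differ in sex and dye orientation.

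The IWP-2 response was present in both arrays by the WNT target Axin2, a feedback inhibitor of the pathway, whose signal was 181 in control and 42.2 in treated ureters of replicate 1, and 154 and 46.7 in replicate 2 (adjusted p = 0.000824 by limma). Porcn, which encodes Porcupine, had a mean log2 ratio of -0.04 (adjusted p = 0.958 by limma); IWP-2 acts on the protein. Each array held 157716 spots for mouse probes, 4 for each probe. Feature Extraction had marked 3.32% and 3.22% of them as outliers, which were left out, and none was saturated. The log2 ratios of the genes tested had an SD of 0.216 in replicate 1 and 0.166 in replicate 2. The number of arrays limits the precision.

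**Figure D1:**
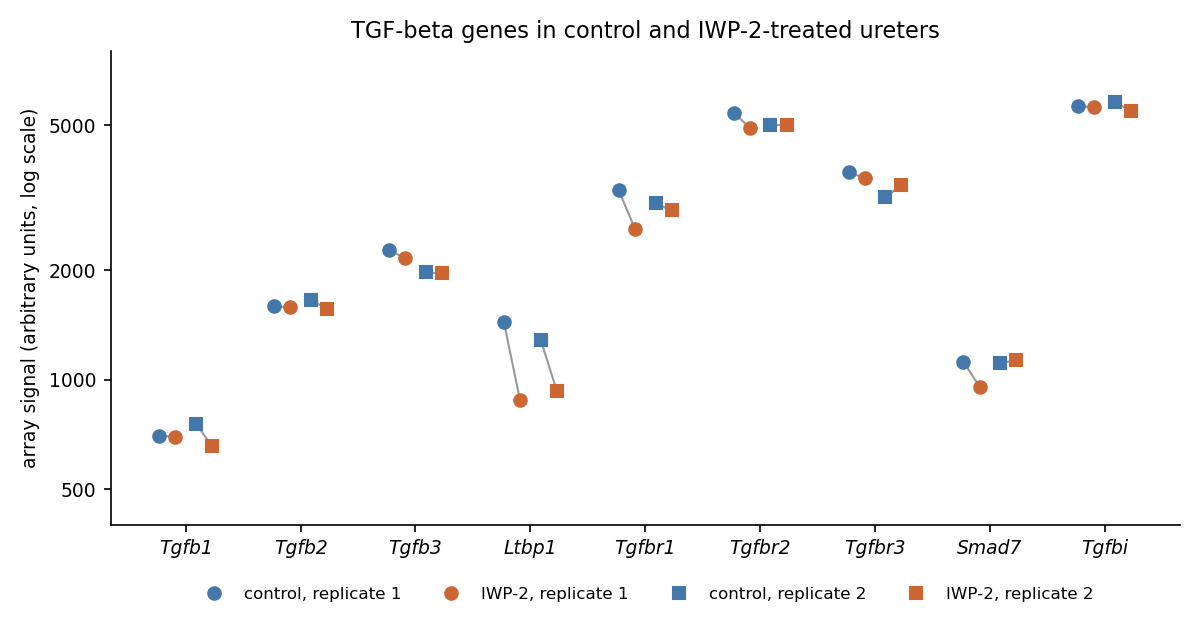
Array signal (arbitrary units, log scale, within-array loess normalisation) of the probe used for each gene, with blue for control and orange for IWP-2, circles for replicate 1 and squares for replicate 2; a line joins the channels of 1 array. Ltbp1 was below its control in both arrays, and levels of different genes cannot be set against each other because each comes from its own probe.

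Ltbp1 encodes a matrix protein that binds the latent TGF-beta complex and takes part in its storage and release. Its signal was 1439 in control and 878 in treated ureters of replicate 1, and 1288 and 932 in replicate 2. Both treated channels were below both control channels, so the groups did not overlap, as in 17% of all genes tested. The arrays were normalised separately, so only channels of the same array are on a common scale. This limit holds for every comparison of channels across arrays given below. The log2 ratio was -0.71 in the female and -0.47 in the male array, a level 1.64-fold and 1.38-fold lower. The 95% confidence interval of the mean ran from -0.79 to -0.39, and the adjusted p was 0.0331 by limma. The second array did not reach the 1.5-fold of the filter. All 4 spots of each array were below 0, from -0.73 to -0.69 in replicate 1 and from -0.48 to -0.44 in replicate 2, and the ranges of the 2 arrays did not overlap. Ranked by fall among the 14336 genes tested, Ltbp1 stood at place 89 in replicate 1 and at place 146 in replicate 2. The call was lost without loess (adjusted p = 0.0530 by limma), without the signal filter (0.0745), with only probes well above background (0.0696) and, by construction, with the mean of its 2 probes (0.167).

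This result came from 1 of 2 probes. The probe used lies at mm9 chr17:75790530-75790589 on the plus strand. The other, at chr17:75446945-75447004, had signals between 5.07 and 7.58 before flooring in all 4 channels, under the floor of 15, and gave no ratio. The array file assigns it to a cDNA clone and not to the RefSeq transcript of the first probe. Its sequence is printed because the array names it Ltbp1 while it was too dim to give a reading of the change, with the TAA triplet at its end in capitals.
Ltbp1 probe 2: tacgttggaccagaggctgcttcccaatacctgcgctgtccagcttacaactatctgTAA

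The mouse gene has 2 promoters in the RefSeq table of assembly GRCm38.p6, at chr17:75005279-75005578 and chr17:75178531-75178830, both on the plus strand, each running from 250 bases before to 50 bases after a transcript start. They are shown because Ltbp1 is the gene that passed the test. Capitals mark CAGAC, the box that SMAD3 and SMAD4 are known to bind, on either strand (GTCTG on the strand printed).
Ltbp1 promoter 1: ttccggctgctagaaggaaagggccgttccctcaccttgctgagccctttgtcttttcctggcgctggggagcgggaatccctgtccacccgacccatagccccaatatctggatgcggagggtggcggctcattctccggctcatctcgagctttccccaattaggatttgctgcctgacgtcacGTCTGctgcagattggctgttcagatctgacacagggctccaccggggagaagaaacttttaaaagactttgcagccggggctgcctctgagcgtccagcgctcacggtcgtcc
Ltbp1 promoter 2: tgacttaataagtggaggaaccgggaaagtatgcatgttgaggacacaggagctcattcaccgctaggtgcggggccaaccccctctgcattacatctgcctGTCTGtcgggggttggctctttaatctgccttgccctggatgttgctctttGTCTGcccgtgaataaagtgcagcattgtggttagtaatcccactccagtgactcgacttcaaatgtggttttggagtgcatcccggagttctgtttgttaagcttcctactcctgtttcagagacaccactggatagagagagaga
Promoter 1 held 1 such box, starting at position -64 from the transcript start, and promoter 2 held 2, at -148 and -97. A CAGAC box on either strand stood in 49.6% of the 32851 promoters of this length, so its presence marks no small class of genes. Neither promoter held CTTTGAT, the core bound by the TCF and LEF factors of the WNT pathway (3.73% of promoters), the palindrome GTCTAGAC (0.213%), or TGANTCA, the AP-1 site (7.81%). No match says only that these letters are not in these windows. Both strands were searched for each motif, and CAGAC alone matched. The table held promoters for 6 of the 9 genes, 8 in all, and none of the 8 held CTTTGAT, GTCTAGAC or TGANTCA. Tgfb3, Tgfbr3 and Smad7 had no entry.

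The genes with log2 ratios closest to those of Ltbp1 in both arrays, by Euclidean distance over the 2 arrays, were Baalc, Slit2 and Fzd1. Their distances were 0.019, 0.026 and 0.029. Slit2 encodes a secreted guidance cue, and its log2 ratios were -0.72 and -0.44. Fzd1 encodes a WNT receptor, and its log2 ratios were -0.73 and -0.49. Baalc had -0.70 and -0.45.

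**Figure D2:**
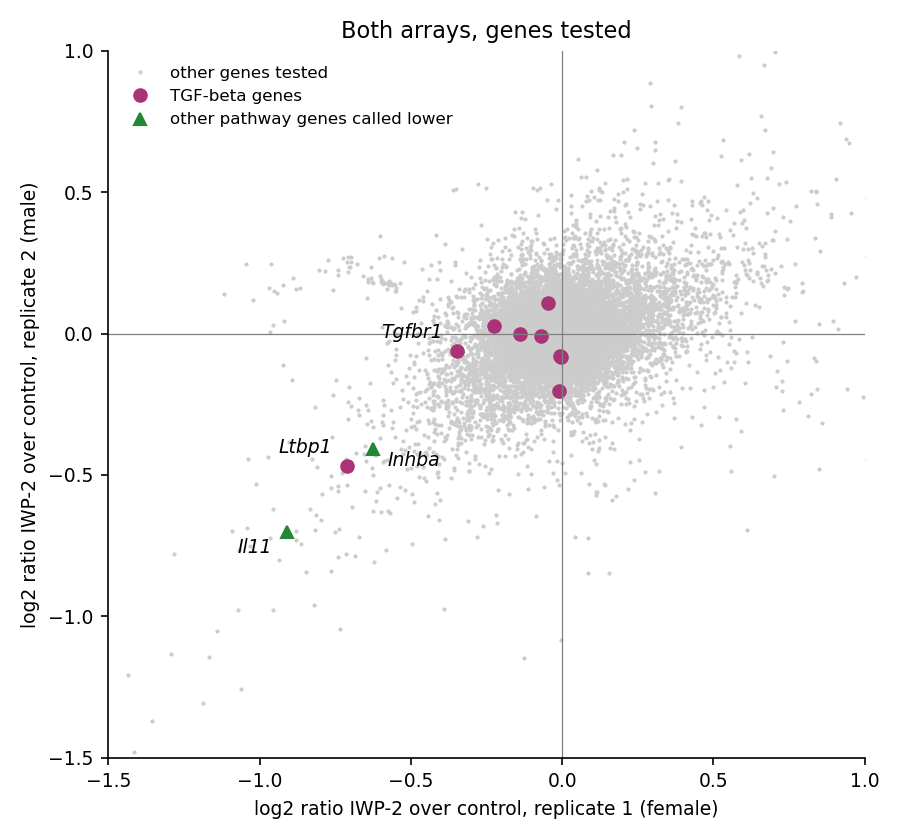
Log2 ratio of IWP-2 over control in replicate 1 (x axis, female) against replicate 2 (y axis, male) for the genes tested, with the 9 TGF-beta genes as purple circles and the 2 other pathway genes called lower, Il11 and Inhba, as green triangles. Ltbp1 stands at -0.71 and -0.47, apart from the other 8; 54 of the 14336 genes lie beyond the axes, which run from -1.5 to 1.

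Tgfb1, Tgfb2 and Tgfb3 encode the ligands, and none passed the test. Tgfb1 had a signal of 702 in control and 697 in treated ureters of replicate 1, and 756 and 657 in replicate 2. Its log2 ratios were -0.01 and -0.20, and its mean of -0.11 had a 95% confidence interval from -0.29 to 0.08 (adjusted p = 0.747 by limma). The difference was thus carried by the male array, in which all 3 spots kept were below 0, while 2 of 3 were so in the female array.

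Tgfb2 was measured by 2 probes. The first had signals of 1590 in control and 1581 in treated ureters of replicate 1, and 1655 and 1565 in replicate 2, with log2 ratios of -0.01 and -0.08 (adjusted p = 0.949 by limma). The second had 863 and 750 in replicate 1 and 836 and 747 in replicate 2, with log2 ratios of -0.20 and -0.16. Both probes thus had mean log2 ratios below 0, and the second, the dimmer one, had all 8 spots below 0. The first probe lies at mm9 chr1:188449333-188449392 and the second at chr1:188447534-188447593, both on the minus strand.

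Tgfb3 had signals of 2266 in control and 2157 in treated ureters of replicate 1, and 1970 and 1959 in replicate 2. The mean log2 ratio was -0.04, with a 95% confidence interval from -0.20 to 0.12 (adjusted p = 0.961 by limma). The treated channel of replicate 1 was above the control channel of replicate 2, so the groups overlapped on these separately normalised arrays.

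The ligands are alike in sequence where the mature dimer is encoded, and the probes of Tgfb1 and Tgfb2 fall on the same stretch of it. They are shown because 2 ligand genes with separate readings are measured there through partly shared letters. The Tgfb1 probe lies at mm9 chr7:26489877-26489936 on the plus strand and the Tgfb2 probe at the place given above. Laid over each other without gaps they overlap by 41 bases, and capitals mark the 28 that match, with 13 that differ.
Tgfb1 probe: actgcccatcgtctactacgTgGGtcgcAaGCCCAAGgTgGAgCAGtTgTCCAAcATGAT
Tgfb2 probe 1: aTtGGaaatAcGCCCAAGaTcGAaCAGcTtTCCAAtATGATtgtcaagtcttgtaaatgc

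Tgfbr1 encodes the type I receptor kinase, which phosphorylates SMAD2 and SMAD3. The probe used, at mm9 chr4:47427736-47427795, had signals of 3308 in control and 2598 in treated ureters of replicate 1, and 3046 and 2919 in replicate 2. Both treated channels were below both control channels, as in 17% of all genes tested. The gap was wide in the female array alone, with log2 ratios of -0.35 and -0.06. The mean was -0.21 with a 95% confidence interval from -0.41 to 0.004, and the gene was not called (adjusted p = 0.401 by limma).

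A further probe of Tgfbr1, assigned to the same transcript at chr4:47424946-47425005, went the other way. Its signals were 105 in control and 172 in treated ureters of replicate 1, and 130 and 136 in replicate 2. The log2 ratios were 0.72 and 0.07, and the 4 spots of replicate 1 lay between 0.62 and 0.81. The remaining 2 probes are assigned to other transcript models; one had signals between 23.4 and 27.2 and the other lay under the floor in all channels. The probes of Tgfbr1 thus disagreed in direction, and no single direction can be given for the gene.

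Tgfbr2 encodes the type II receptor, which binds the ligand first. The probe used, at mm9 chr9:115997155-115997214 on the minus strand, had signals of 5411 in control and 4913 in treated ureters of replicate 1, and 5002 and 5001 in replicate 2. Its mean log2 ratio was -0.07, with a 95% confidence interval from -0.24 to 0.10 (adjusted p = 0.865 by limma). The second probe, at chr9:115999496-115999555, had 387 and 447 in replicate 1 and 360 and 403 in replicate 2, log2 ratios of 0.21 and 0.16. None of its 8 spots was below 0, so this gene too had probes of opposite direction. The sequence of the second probe is shown because it marks where on the transcript the higher reading was taken: it ends with the stop codon of the receptor, in capitals.
Tgfbr2 probe 2: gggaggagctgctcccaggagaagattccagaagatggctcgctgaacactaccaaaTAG

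**Figure D3:**
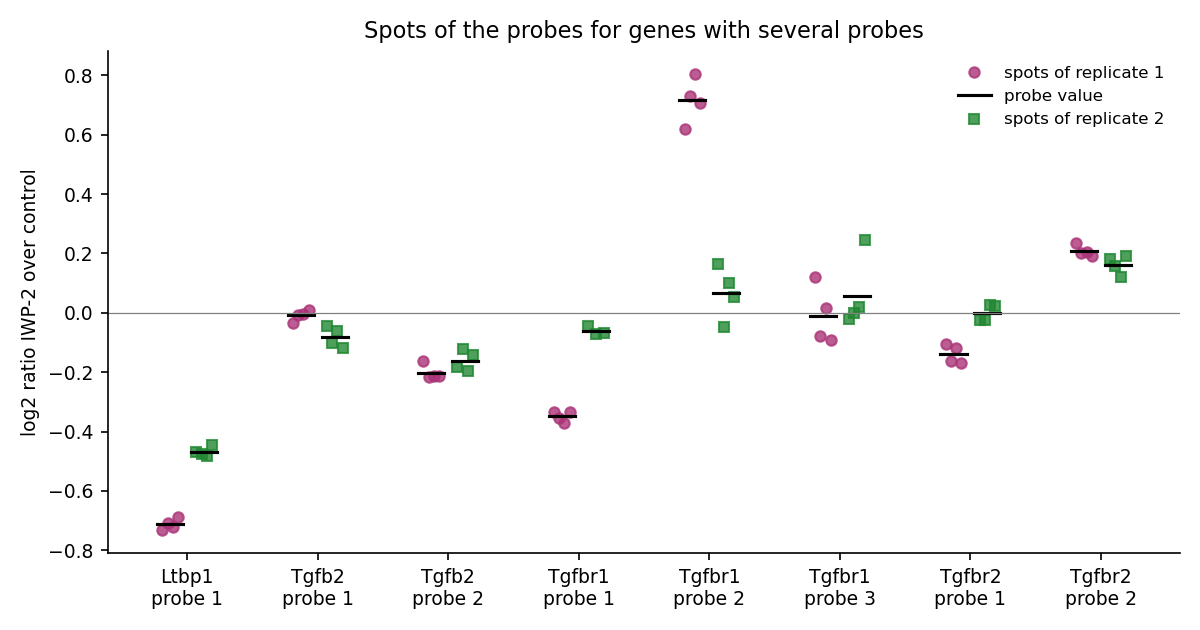
Log2 ratio of IWP-2 over control for every spot kept of the probes of Ltbp1, Tgfb2, Tgfbr1 and Tgfbr2, with circles for replicate 1, squares for replicate 2 and black bars for the value of the probe; probes under the floor of 15 are left out and probe 1 is the one used. The spots of the Ltbp1 probe spanned -0.73 to -0.69 in replicate 1 and -0.48 to -0.44 in replicate 2, those of Tgfbr1 probe 3 spanned -0.02 to 0.25 in replicate 2, and probes 1 and 2 of Tgfbr1 and of Tgfbr2 lay on opposite sides of 0 in replicate 1.

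Tgfbr3 encodes betaglycan, a co-receptor that presents the ligands and is needed above all for TGF-beta2. Its signals were 3706 in control and 3583 in treated ureters of replicate 1, and 3171 and 3416 in replicate 2. The log2 ratios of -0.05 and 0.11 had opposite signs, and the 95% confidence interval ran from -0.15 to 0.21 (adjusted p = 0.983 by limma).

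Neither of the target genes passed. Smad7, which encodes the inhibitory SMAD, had signals of 1120 in control and 957 in treated ureters of replicate 1, and 1110 and 1130 in replicate 2. All 4 spots were below 0 in the female array and none was in the male array, with log2 ratios of -0.23 and 0.03 (mean -0.10, 95% confidence interval from -0.30 to 0.10, adjusted p = 0.798 by limma). Tgfbi, which encodes a secreted matrix protein named for its induction by TGF-beta, had signals of 5626 and 5606 in replicate 1 and 5779 and 5456 in replicate 2. Its log2 ratios were -0.01 and -0.08, and its interval ran from -0.21 to 0.12 (adjusted p = 0.952 by limma).

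Of the 9 genes, 7 were below 0 in both arrays, against 29.1% of all genes tested, and 2 had opposite signs, against 45.2%. The median of the mean log2 ratios was -0.07 over the 9 and -0.01 over all genes tested. In 6 of the 9 genes, Ltbp1, Tgfb1, Tgfb2, Tgfbi, Tgfbr1 and Tgfbr2, both treated channels were below both control channels, against 17% of all genes tested; in Tgfbr2 the nearest treated and control signals were 5001 and 5002. These counts follow the probe used for each gene, and Tgfbr1 and Tgfbr2, whose probes disagree in direction, are counted among the 7. The count over channels also sets arrays against each other that were normalised separately.

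The wider pathway was described with 76 further genes in 5 lists, of which 70 were tested. Among these limma called 2 lower, Il11 and Inhba, and none higher, against 0.886% and 0.363% of all genes tested. At an unadjusted p under 0.05 limma gave 14 lower and 1 higher of the 70, against 6.64% and 6.27%. The mean log2 ratio was below 0 in 44 of the 70, with a median of -0.06, against 53.0% of all genes tested and a median of -0.01.

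Genes of the latent complex and its activation (other LTBPs, fibrillins, integrins, thrombospondins, small proteoglycans) numbered 15 tested. None was called by limma, 2 were lower at an unadjusted p under 0.05, and the median was -0.06. The values farthest from 0 belonged to Fmod, a proteoglycan that binds TGF-beta (mean log2 ratio -0.32), and to Fbn2 and Fbn1, the fibrillins to whose microfibrils LTBPs attach (-0.30 and -0.17). Their adjusted p-values by limma were 0.204, 0.175 and 0.572. Of the 16 genes of the latent complex and its activation tested here, Ltbp1 included, only Ltbp1 was called, against 1.25% of all genes tested. The call of Ltbp1 held in 7 of 11 fits.

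Of 5 receptor partners tested, none was called by limma, and none was below an unadjusted p of 0.05. The values farthest from 0 were 0.10 for Acvrl1, a type I receptor of endothelium, -0.08 for Cd109, a co-receptor that dampens the signal, and -0.08 for Eng, which encodes endoglin. Of 14 SMADs and their regulators tested, none was called by limma and none was below an unadjusted p of 0.05 either. Their mean log2 ratios lay between -0.12 for Trim33 and 0.15 for Ppm1a, a phosphatase of SMAD2 and SMAD3, and Pmepa1, an induced inhibitor, had -0.10.

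The 28 genes known to be induced by TGF-beta had a median log2 ratio of -0.14, against -0.01 over all genes tested. Among them limma called 1 lower and none higher, against 0.886% and 0.363% of all genes tested. Il11, which encodes a cytokine of fibroblasts, had signals of 1084 in control and 577 in treated ureters of replicate 1, and 1077 and 662 in replicate 2. It was lower in both arrays by over 1.5-fold (mean log2 ratio -0.81, SE 0.078, adjusted p = 0.00974 by limma) and was the single pathway gene that passed the filter on signal and fold. Both treated channels were below both control channels, as in 17% of all genes tested, and Il11 was called in all 11 fits.

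Next in size in that list were Edn1, encoding endothelin 1 (mean log2 ratio -0.68, adjusted p = 0.0812 by limma), the matricellular Ctgf (-0.49, 0.0865) and the fibronectin gene Fn1 (-0.38, 0.109), none of which was called. With normexp background correction Edn1 was called lower (mean log2 ratio -0.58, adjusted p = 0.0488 by limma). At an unadjusted p under 0.05, 9 of the 28 were lower and 1 higher, against 6.64% and 6.27% of all genes tested. Many of these genes also answer to other signals, and the members of the list do not move as 1 group: the smooth muscle genes Acta2 and Tagln, which TGF-beta is known to raise, had mean log2 ratios of 0.05 and 0.16. Smad7 and Tgfbi were not called, as described above, and a difference between these targets and Il11 was not tested.

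**Figure D4:**
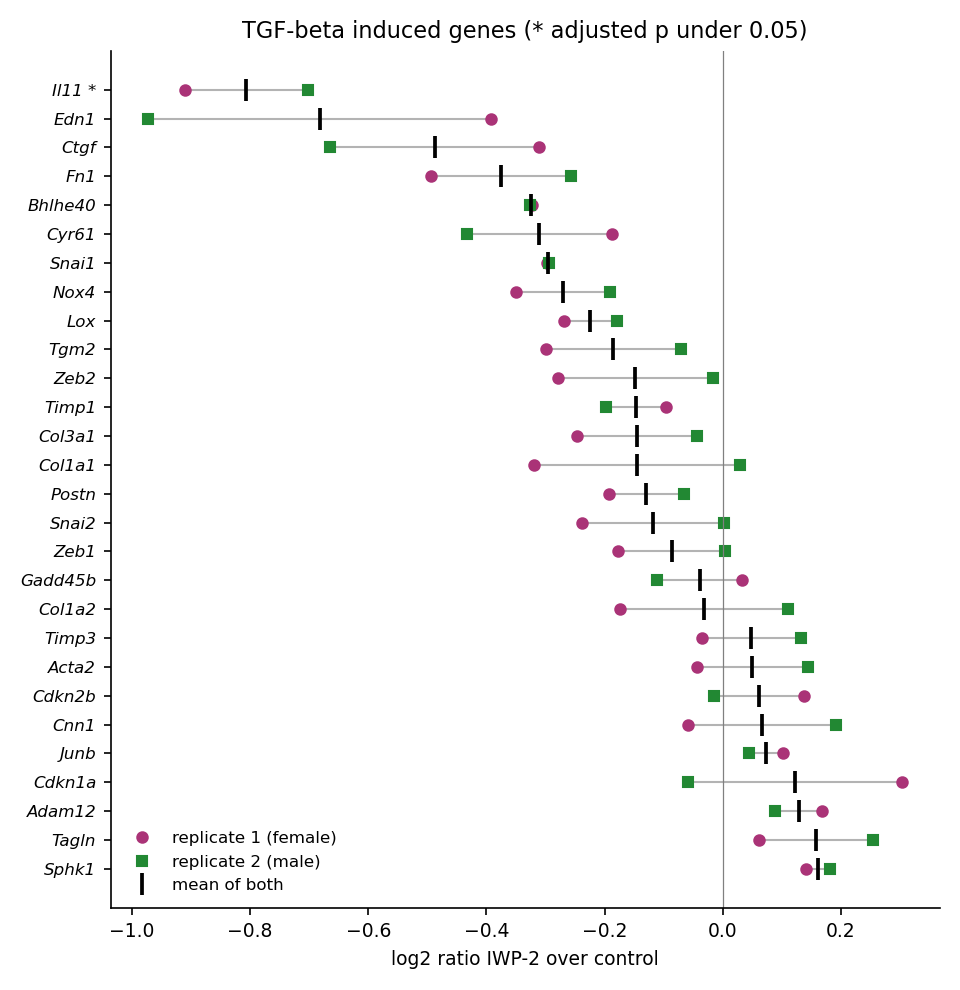
Log2 ratio of IWP-2 over control (x axis) of the 28 TGF-beta induced genes, ordered by the mean of both arrays (black bar), with a circle for replicate 1 and a square for replicate 2; an asterisk marks an adjusted p under 0.05 by limma. Il11 alone carries the asterisk, and 14 of the 28 lay below 0 in both arrays, against 29.1% of all genes tested.

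In the activin branch, which shares SMAD2 and SMAD3 with TGF-beta, 8 of 12 genes were tested. Inhba, which encodes the subunit of activin A, had signals of 319 in control and 207 in treated ureters of replicate 1, and 314 and 237 in replicate 2. It was called lower (log2 ratios -0.63 and -0.41, adjusted p = 0.0406 by limma), a call that was lost in 7 of 10 other settings. Fst and Fstl3, which encode antagonists of activin, had mean log2 ratios of -0.26 and -0.25 and were not called (adjusted p = 0.186 and 0.199 by limma). Acvr1b, a type I receptor, had 0.12.

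Markers of the ureter's cell types were read beside these values. Of 5 lamina propria markers, 2 were called lower by limma, against 0.886% of all genes tested, and 1, Foxf1, was above 0 in both arrays. The study lists all of these markers but Foxf1 as reduced by IWP-2 in these same arrays. A fall of the list and of its sum was therefore known beforehand and is no separate result. Among the 2 called was Aldh1a2, an enzyme of retinoic acid synthesis (mean log2 ratio -0.63, adjusted p = 0.0280 by limma). The call of Aldh1a2 was lost without the signal filter, with probes well above background and with the mean of all probes (adjusted p from 0.0628 to 0.0669 by limma). The summed signal of these markers went from 22130 in control to 15691 in treated ureters of replicate 1 and from 16663 to 15272 in replicate 2. Of 10 urothelial markers none was called by limma, but 5 were higher and none lower at an unadjusted p under 0.05, against 6.27% and 6.64% of all genes tested. Of the 10, 7 were above 0 in both arrays, against 25.7% of all genes tested; the uroplakin genes Upk1a and Upk3a had mean log2 ratios of 0.36 and 0.12. The urothelial sum went from 144125 to 179780 in replicate 1 and from 174304 to 179231 in replicate 2. Of 8 smooth muscle markers none was called by limma, 1 was higher at an unadjusted p under 0.05, and all had a mean above 0. Their sum went from 100502 to 100410 in replicate 1 and from 85525 to 100079 in replicate 2. Of 5 endothelial markers none was called by limma and 1 was higher at an unadjusted p under 0.05 (Cdh5 had -0.10), with a sum that went from 13380 to 12295 in replicate 1 and from 11265 to 11663 in replicate 2. All 4 macrophage markers tested, of 5 listed, were above 0 in both arrays without a call by limma, 2 of them at an unadjusted p under 0.05 (Lyz2 had 0.31). Their sum went from 4970 to 5824 in replicate 1 and from 5191 to 5923 in replicate 2. Of 4 Schwann cell and neuron markers none was called by limma, while 2 were lower and 1 higher at an unadjusted p under 0.05 (S100b had 0.24). Their sum went from 793 to 759 in replicate 1 and from 661 to 663 in replicate 2. The part of any of these in the values of Ltbp1 and the other TGF-beta genes was not tested.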

How the data were processed

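Two-colour Agilent arrays of control and IWP-2-treated ureter pools were scanned and read by the authors with Agilent Feature Extraction (version 12.2.0.7 in the file header, 10.7.3.1 in the submitters' processing notes). The deposited files hold processed intensity values of both channels per spot, background-subtracted and dye-normalised, and log10 ratios of red over green; coordinates are mm9. A deposited table of signed fold values, given as a score with 1 decimal, served as an alternative. Control and outlier-marked spots were dropped, channels were normalised within each array by loess (span 0.3, 4 iterations, limma 3.58.1 in R 4.3.3), spots of a probe were averaged, values under 15 were set to 15, and log2 ratios were turned to IWP-2 over control. The probe with the highest mean signal stood for a gene. limma's moderated test had 1 residual and 5.49 prior degrees of freedom. It was tested on simulated data. Both arrays shared a slide and a scan, and sex, dye orientation and replicate cannot be told apart.

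The genes named were all 9 TGF-beta genes with every probe, Axin2, Porcn, the called genes of each pathway list with the 3 farthest from 0, Aldh1a2, Acta2, the brightest marker of each other cell type and the 3 genes most like a called TGF-beta gene. The TGF-beta genes and the lists were chosen with earlier results of these data known. Bhlhe40, Snai1, Tagln, Foxf1, Upk1a and Mstn were named after their values were seen. Promoter sequences are RefSeq's (GRCm38.p6) and probe sequences are from the array files. Of the gene lists, 1 pathway gene and 1 marker are not reported here and are left out of the lists' counts.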

Additional observations from a re-analysis of the deposited data

Results flagged for a closer look

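Smad7 and Tgfbr3 had log2 ratios of opposite sign in the female and the male array. Smad7 was at -0.23 in the female and 0.03 in the male array, a gap of 0.252, and Tgfbr3 at -0.05 and 0.11, a gap of 0.156. With 1 array of each sex the difference was not tested, and sex and dye orientation cannot be told apart. Opposite signs were found in 45.2% of all genes tested.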

How the results depend on the processing

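Ltbp1 was below 0 under every setting tried, between -0.59 and -0.29 in 11 fits by limma, of which 7 called it (adjusted p from 0.0126 to 0.167), and at -0.47 without replicate 1 and -0.71 without replicate 2. No TGF-beta gene (0 of 9) was called without loess (Ltbp1 at an adjusted p of 0.0530), without the signal filter (0.0745), with probes well above background in all channels (0.0696), or with the mean of all probes, where Ltbp1 was at -0.29 (0.167), by construction because its second probe lies at the floor. Genes at the floor in every channel were left out of the fits without the signal filter and with probes well above background. Tgfb3 turned to 0.00396 under median centring, and Tgfbr1 and Tgfbr2 to 0.0526 and 0.0578 with the mean of all probes.

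Il11 was called in all 11 fits. The count of pathway genes lower fell from 2 to 1, with the loss of Inhba (adjusted p from 0.0513 to 0.0866), without loess, with median centring, without the signal filter, with probes well above background, with the median over spots, with every probe on its own and with the mean of all probes. With normexp background correction it was 3, with Edn1 added (adjusted p = 0.0488). Without the signal filter and with probes well above background 1 pathway gene, Mstn, which encodes myostatin, was called higher. Its signals were 24.5 in control and 39.4 in treated ureters of replicate 1, and 17.8 and 35.6 in replicate 2. They lay near the floor and under the signal minimum of 100, so Mstn was not tested in the main fit. In these fits 32 of 18171 and 34 of 18134 genes were called higher. Lowering the filter's fold minimum to 1.2 added Ltbp1 (1 of the 9 genes lower). It gave 6 pathway genes lower, among them Bhlhe40 and Snai1, and raising the minimum to 2 left 0. The share of all genes past the filter at these other minimums was not computed. These counts thus cannot be read as a result about the genes. Without replicate 1 or 2 the filter would rest on a single array, so no count is given for it. Over all genes, 70.9% of calls were lower, 60.6% with normexp background correction and 56.0% with median centring. No paired analysis was possible because none is left to add: the ratios tested are themselves taken between the paired channels of 1 array.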
